A study of Mus musculus with 6 samples.

Results

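Brown adipocytes labelled PGC-1alpha -/- in which PGC-1beta was knocked down were compared with PGC-1alpha -/- brown adipocytes that received a control siRNA. The comparison was defined by the sample titles and used 4 of the 6 arrays of the series: 2 arrays of PGC-1alpha -/- cells expressing an siRNA specific for PGC-1beta (knockdown) and 2 of PGC-1alpha -/- cells expressing a control siRNA (knockout-control). By their labels both sides therefore carry the PGC-1alpha knockout, and both express an siRNA. The cells were brown preadipocytes immortalised with the SV40 large T antigen and were harvested at day 7 of differentiation. The 2 remaining arrays, of wild-type cells whose titles name no siRNA, entered the estimate of the spread between arrays, served as a reference level and were compared with knockout-control at the end. A passage number, 4, is labelled for the wild-type cells only. The titles name 1 siRNA against PGC-1beta, with no other siRNA and no re-expression of the gene, so effects of this siRNA on other transcripts cannot be told apart from those of losing PGC-1beta. The series calls the replicates biological but does not say whether they were separate infections or cultures, so the p-values measure the spread between these arrays. In RNA from a whole culture, fewer cells of a type and less RNA per cell cannot be told apart.

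PGC-1alpha (Ppargc1a), PGC-1beta (Ppargc1b) and Pprc1 are transcriptional coactivators: they do not bind DNA themselves but are recruited by nuclear receptors such as the estrogen-related receptors and PPARs, and by NRF1. They are known for raising the transcription of genes for the respiratory chain, the citric acid cycle and fatty acid oxidation. In brown fat these mitochondria burn fuel to make heat through the uncoupling protein Ucp1, with Dio2, which activates thyroid hormone, as a further thermogenic gene. PGC-1alpha is itself induced by cold and cAMP, whereas PGC-1beta is not, and the question posed by the design is what PGC-1beta adds when PGC-1alpha is already absent.

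The values are intensities of 1 probe set per gene on a linear scale. The 6 array medians lay between 220.9 and 242.7, and the lowest was that of knockdown array 2. Across genes, which are not independent replicates, the log2 values correlated with r = 0.978 between the knockout-control arrays and r = 0.963 between the knockdown arrays. Knockdown array 1 correlated with knockout-control array 2 at r = 0.967, above its value with the other knockdown array. Fold changes are differences of log2(intensity + 32), which understates the change of dim genes. A gene was called when its limma p was under 0.05 after Benjamini-Hochberg adjustment across all 13649 genes tested.

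The siRNA target was examined first. Ppargc1b stood at 1862 and 2302 on the knockout-control arrays and at 534 and 224 on the knockdown arrays, against 2849.5 and 3162 in wild type. The groups did not overlap, and knockdown array 2 held the lower value of the pair (log2 change -2.47 ± 0.32 SE, adjusted p = 0.022 in limma). The fall was not called without knockout-control array 1 (limma adjusted p = 0.122) or array 2 (0.146). The family members outside the siRNA's target overlapped between the groups: Ppargc1a stood at 767 and 830.4 against 1146 and 648, and Pprc1 at 412 and 506 against 539 and 458. In wild type Ppargc1a stood at 1338 and 1319, so knockout-control read lower but was not called (log2 change -0.71, limma adjusted p = 0.125), and its 4 other probe sets differed by -0.81 to -0.66. The arrays thus do not show the absence of this transcript, and whether the probe sets lie in the deleted part of the gene was not analysed here. Ucp1 fell from 4199 and 3725 to 156 and 105, and Dio2 from 480.0 and 409 to 62 and 66.7. Both knockdown arrays lay under every other array for these 2 genes (limma adjusted p = 3.44e-05 and 0.00051). A second Dio2 probe set, near the filter, read 159 and 190.7 in knockout-control and 145 and 189.8 in knockdown cells, so the fall was seen by the brightest probe set only.

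**Figure D1:**
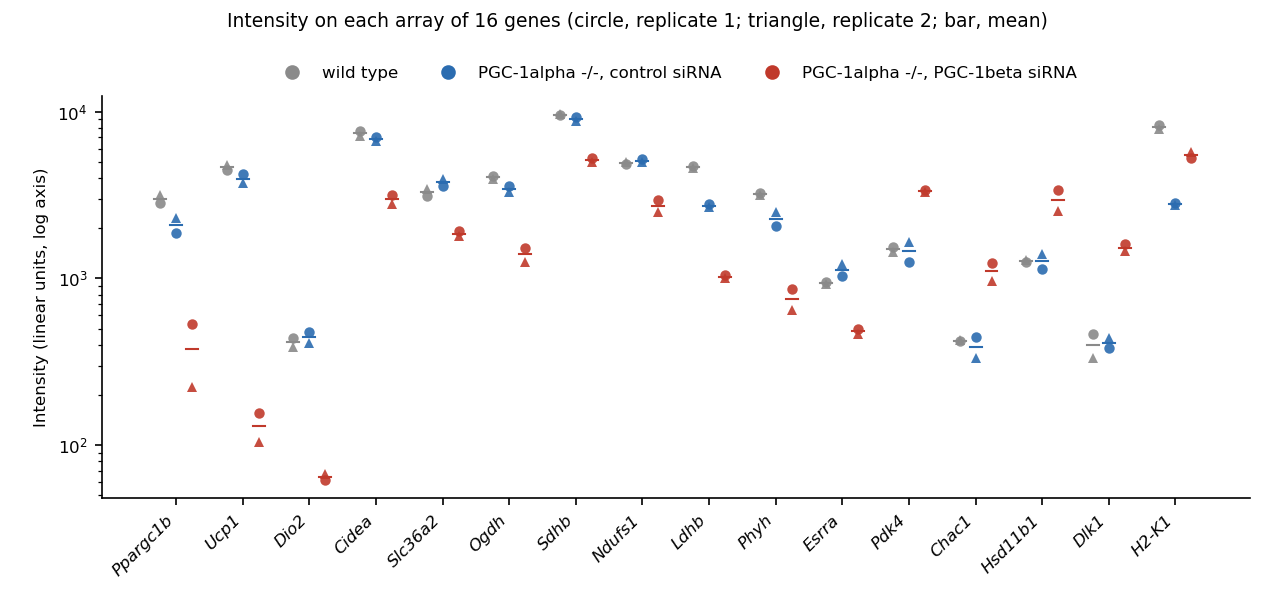
Intensity (log axis) of 16 genes on each array, grouped by wild type (grey), knockout-control (blue) and knockdown (red), with replicate 1 as circles, replicate 2 as triangles and the group mean as a bar. The red points lie below the blue ones for the 11 genes from Ppargc1b to Esrra and above them for the 5 genes from Pdk4 to H2-K1; Ucp1 stands at 156 and 105 in red against 4199 and 3725 in blue.

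More genes fell than rose. Of the 13649 genes tested, 77 were called lower (0.564%) and 37 higher (0.271%), together 114 (0.835%). At an unadjusted p under 0.05 there were 1121 lower (8.21%) and 809 higher (5.93%). The fall was at least 2-fold for 50 of the genes called lower, and the rise at least 2-fold for 26 of those called higher. Of the 13356 genes with a value on all 4 arrays, the knockdown values lay wholly below the knockout-control values in 2858 (21.4%) and wholly above in 2288 (17.1%), so separation of the 4 arrays on its own is common. When array medians were set equal the calls were 80 higher and 87 lower, and after quantile normalization 192 and 189, which moved the share of higher calls from 32.5% to 47.9% and 50.4%.

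The number of calls rested on single arrays. Without knockout-control array 1 there were 9 lower and 4 higher calls, and without array 2 there were 7 and 1. Without knockdown array 1 there were 463 and 76, and without knockdown array 2 there were 70 and 79. Without either wild-type array there were 30 and 17, as with the 4 knockout arrays alone, since a lone wild-type array adds nothing to the spread. Calls made with each array left out in turn numbered 8: Ucp1, Dio2, the myoglobin gene Mb, the adhesion receptor gene Adgrg6, the chloride channel gene Ano1, the metalloprotease gene Adamts1, the unannotated transcript AA619741, and the chemokine gene Cxcl12. Of these, 7 fell and Cxcl12 rose. A dim second probe set of Mb read 185 and 124 against 196 and 214, a difference of 0.36, opposite in sign to the bright one (-2.66). Every other call named in the following text was lost without at least 1 array.

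**Figure D2:**
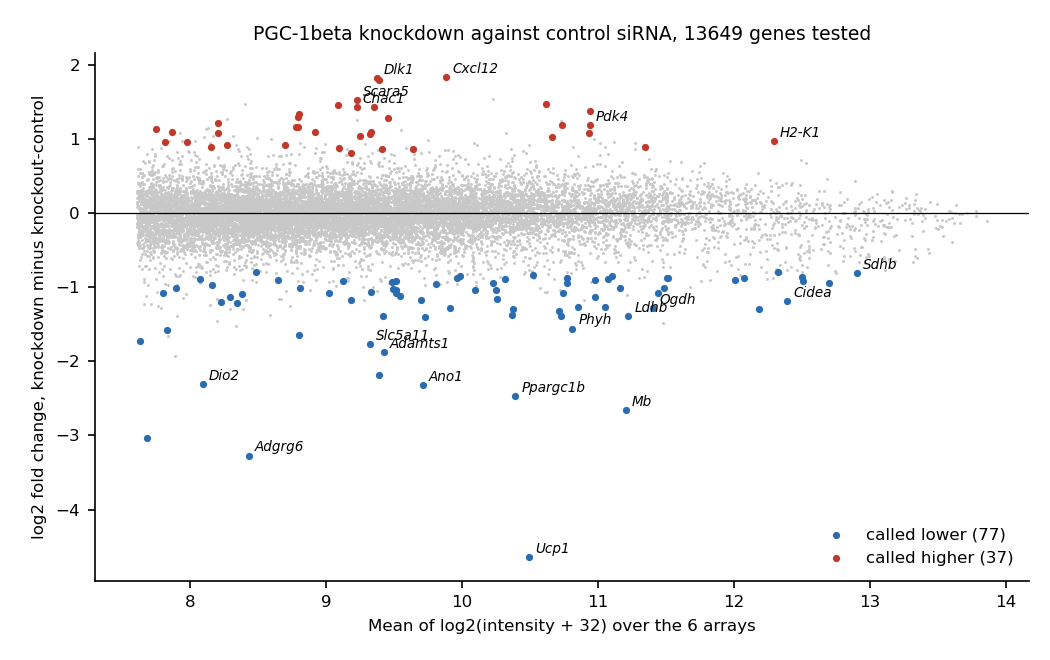
Log2 fold change of each of the 13649 genes tested (knockdown minus knockout-control) against its mean of log2(intensity + 32) over the 6 arrays, with the 77 genes called lower in blue and the 37 called higher in red. Ucp1 (-4.64) lies farthest from 0 on either side, and no gene with a mean from 13 to 14 was called, out of 104.

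The citric acid cycle showed the lowest median among the metabolic lists. Of its 18 members tested, 5 were called lower and 0 higher, 17 lay below 0, and the list median was -0.74 on the log2 scale. Among all 13649 genes tested, 77 were called lower (0.564%), 6968 lay below 0, and the median was -0.01. Ogdh, the first enzyme of the 2-oxoglutarate dehydrogenase complex, stood at 3561 and 3276 in knockout-control and at 1521 and 1261 in knockdown cells (log2 change -1.28 ± 0.15 SE, adjusted p = 0.0155 in limma). Both knockdown arrays lay below both control arrays. Dlst, the second enzyme of the same complex, fell from 3556 and 3413 to 2066 and 1717 (log2 change -0.88 ± 0.15 SE, adjusted p = 0.0448 in limma), while Dld, the third, which other dehydrogenases share, stood at 3930.3 and 4457 against 3377 and 1858 and was not called (-0.73 ± 0.25). Mrps36, named as a mitochondrial ribosomal protein and also known as a subunit that holds this complex together, fell from 2138 and 2469.9 to 1004 and 807 (log2 change -1.32 ± 0.16 SE, adjusted p = 0.0181 in limma). Ogdh, Dlst and the linking subunit were thus called by their brightest probe sets, and Dld was not. The 3 other Dlst probe sets above the filter fell less, with differences of -0.32, -0.50 and -0.21. Their limma adjusted p-values over probe sets were 0.462, 0.204 and 0.614, against 0.0523 for the brightest.

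The other called members of the cycle were subunits of isocitrate dehydrogenase, succinyl-CoA ligase and succinate dehydrogenase. Idh3b, a regulatory subunit of the NAD-dependent isocitrate dehydrogenase, fell from 8636 and 8046 to 4869.5 and 3809 (log2 change -0.95 ± 0.16 SE, adjusted p = 0.0443 in limma). Its partners Idh3a and Idh3g had differences of -0.45 ± 0.15 and -0.47 ± 0.14 and were not called. Sucla2, the ADP-forming subunit of succinyl-CoA ligase, stood at 6095 and 6286 against 3754 and 3354 (log2 change -0.80 ± 0.14 SE, adjusted p = 0.0475 in limma). A second, dim probe set of Sucla2 differed by 0.36, in the opposite direction. Suclg2, the GDP-forming alternative to Sucla2, stood at 2009 and 2122 against 2203 and 1936, and these groups overlapped. Citrate synthase (Cs), which starts the cycle, had a difference of -0.36 ± 0.14 and was not called. The pyruvate carboxylase gene Pcx, which feeds the cycle, was at -0.22 ± 0.14. Without knockdown array 1 there were 11 called members, without knockdown array 2 or either wild-type array 1, and without either knockout-control array 0, while the median stayed between -0.86 and -0.62.

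Few respiratory chain and ATP synthase genes were called, while most lay below 0. Over 77 genes tested in complexes I to V with cytochrome c, 4 were called lower and 0 higher, 74 lay below 0, and the median was -0.59. Among all 13649 genes tested, 0.564% were called lower and 6968 lay below 0. The knockdown values lay wholly below the control values in 70 of the 74 members with all 4 values, where the same held for 21.4% of all genes. An unadjusted p under 0.05 with a fall was found for 61 of the 77, and for 8.21% of all genes. Relative to the knockout-control mean, the median member stood at -0.52 on knockdown array 1 and -0.67 on knockdown array 2, where the median of all genes stood at 0.07 and -0.09. These genes are bright, with 68 of the 77 at a mean log2 value of 12 or more. Genes from 12 to 13 on that scale that are in none of the mitochondrial lists had a median of -0.00 (n = 291). With each array left out in turn the called members numbered 38 without knockdown array 1, 1 without knockdown array 2 or either wild-type array, and 0 without either knockout-control array.

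Complex I, which oxidises NADH, had all 33 of its tested subunits below 0, with a median of -0.61, and 1 call. That was Ndufs1, its largest iron-sulfur subunit, which stood at 5182 and 4978 against 2938 and 2489 (log2 change -0.90 ± 0.15 SE, adjusted p = 0.0406 in limma). Its other subunits ranged from -0.91 for Ndufa5 (3864 and 4133 against 2519 and 1770.0, limma adjusted p = 0.0643) to -0.17 for Ndufa7 (7112 and 6729 against 6278 and 5985). No subunit of the 33 had overlapping groups. Knockdown values wholly below the control values were found in 21.4% of all genes, and 6968 of the 13649 genes tested lay below 0.

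Complexes II and III with cytochrome c had a median of -0.70 and 2 calls. All 14 tested members lay below 0, as did 6968 of the 13649 genes tested. Sdhb, the iron-sulfur subunit of succinate dehydrogenase, which belongs to both the cycle and the chain, stood at 9260.0 and 8751 against 5259.7 and 4981 (log2 change -0.81 ± 0.14 SE, adjusted p = 0.0443 in limma). The other 3 subunits of that enzyme had differences of -0.78 ± 0.16 (Sdha), -0.77 ± 0.15 (Sdhc) and -0.73 ± 0.15 (Sdhd), with limma adjusted p-values of 0.0681, 0.0615 and 0.0643. Uqcr11, a small subunit of complex III, fell from 7068 and 6509 to 4027 and 3440.1 (log2 change -0.86 ± 0.15 SE, adjusted p = 0.0453 in limma). Cytochrome c itself (Cycs), the carrier between complexes III and IV, stood at 12060.1 and 12074 against 8921 and 6495 and was not called (limma adjusted p = 0.132).

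Complex IV, cytochrome c oxidase, and ATP synthase had medians of -0.37 over 14 members and -0.57 over 16. One member of complex IV was called, Cox7a1, the isoform of heart, muscle and brown fat, at 5549 and 5834 against 2611 and 2021 (log2 change -1.30 ± 0.16 SE, adjusted p = 0.0193 in limma), and 0 of ATP synthase. Atp5pb, a stalk subunit, had the lowest value in ATP synthase (-0.80 ± 0.22, limma adjusted p = 0.137), and the catalytic subunit Atp5b stood at 12351 and 11851 against 10787 and 10446 (-0.19 ± 0.14). The 3 genes for the membrane ring, Atp5g1, Atp5g2 and Atp5g3, had differences of 0.06, -0.14 and -0.14. Knockdown array 2 holds no value for Cox5b, Atp5a1 and Atp5d, so their differences of -0.53, -0.48 and -0.60 rest on knockdown array 1 alone.

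**Figure D3:**
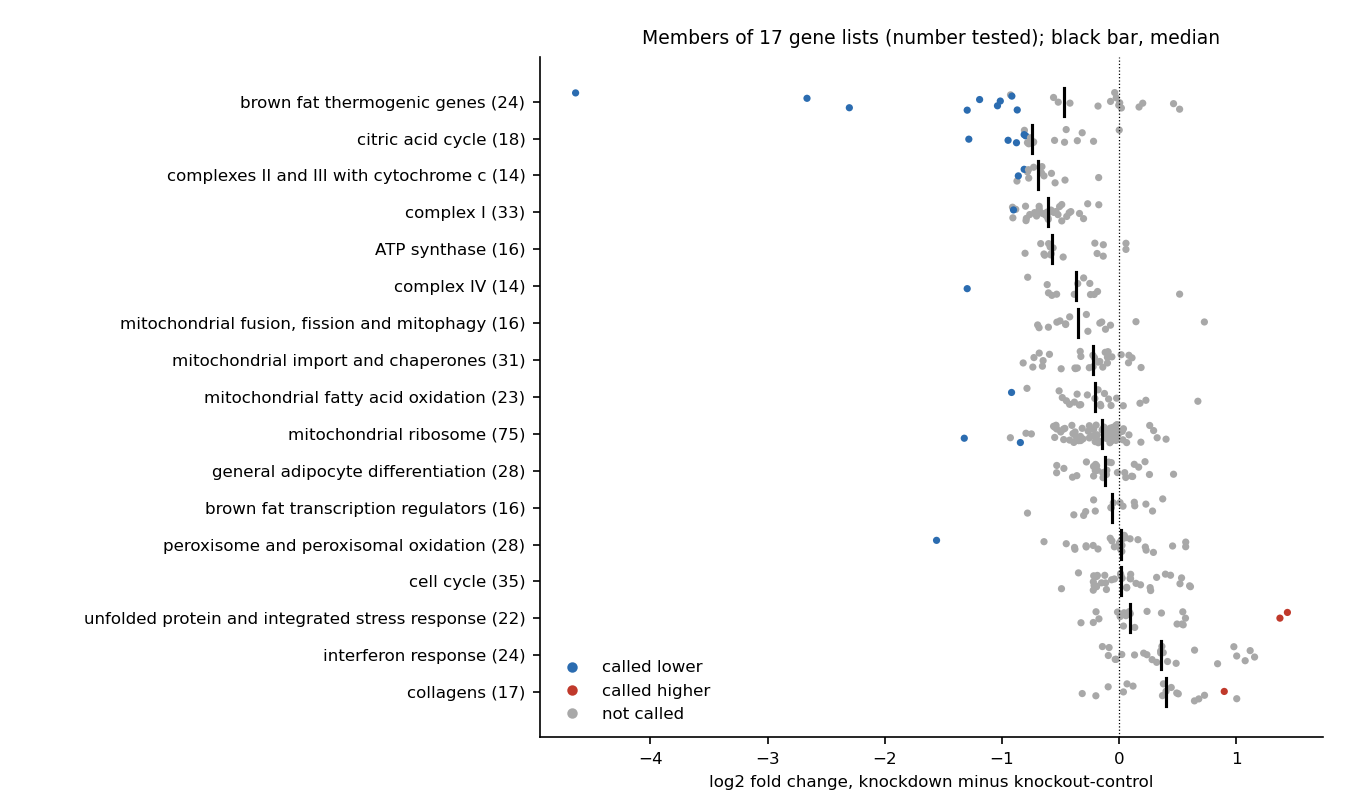
Log2 fold change (knockdown minus knockout-control) of the tested members of 17 gene lists, 1 point per gene, coloured blue where called lower and red where called higher, with a black bar at the list median. The citric acid cycle (-0.74) and complexes II and III (-0.70) lie farthest below 0, the cell cycle list lies at 0.01, and the collagens lie at 0.40.

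Other mitochondrial lists lay closer to the median of all genes. Of 23 fatty acid oxidation genes, 1 was called lower, with a list median of -0.21: Acadvl, the very long chain acyl-CoA dehydrogenase, at 7584 and 6727 against 4049 and 3501 (log2 change -0.92 ± 0.15 SE, adjusted p = 0.0406 in limma). Etfdh, which passes electrons from this pathway to coenzyme Q, was at -0.79 ± 0.14 (limma adjusted p = 0.0539), and the medium chain enzyme gene Acadm at -0.27 ± 0.14. Of 75 mitochondrial ribosome genes, 2 were called lower (Mrps36 and Mrpl34) at a median of -0.15. The ribosome list differed between the knockdown arrays, at -0.02 on array 1 and -0.34 on array 2. For reference, 0.564% of all genes tested were called lower, at a median of -0.01.

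Of 12 coenzyme Q genes, 2 were called lower, at a median of -0.22. Coq5, a methyltransferase of the pathway, fell from 1949 and 2229.6 to 983 and 702 (log2 change -1.29 ± 0.18 SE, adjusted p = 0.0285 in limma), and Coq8a, a kinase-like protein that supports it, from 5475 and 5302 to 2792 and 3033 (log2 change -0.88 ± 0.14 SE, adjusted p = 0.037 in limma). None of 31 import and chaperone genes, 18 genes of mitochondrial DNA upkeep, 16 of fusion, fission and mitophagy, 33 SLC25 carriers and 19 of branched-chain amino acid breakdown was called by limma. Their medians were -0.22, -0.17, -0.35, -0.08 and -0.15, and 9, 5, 8, 3 and 4 of them fell at an unadjusted p under 0.05, while 0, 0, 1, 2 and 0 rose. Over all genes tested 8.21% fell and 5.93% rose at that threshold, and the SLC25 carriers (3 and 2 of 33) were close to these shares. The share of all genes called lower was 0.564%.

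Further mitochondrial genes outside the lists were among the calls and were chosen after their values were seen. Apoo, a subunit of the complex that shapes the cristae, stood at 3018 and 3391 against 1682 and 1332 (log2 change -1.08 ± 0.16 SE, adjusted p = 0.0339 in limma). Fmc1, an assembly factor of ATP synthase, stood at 2302 and 2757 against 1263 and 834 (log2 change -1.27 ± 0.20 SE, adjusted p = 0.0404 in limma). Pdpr, the regulatory subunit of pyruvate dehydrogenase phosphatase, stood at 1336 and 1432 against 729 and 599 (log2 change -1.03 ± 0.15 SE, adjusted p = 0.0322 in limma). Atad3a, an ATPase of the inner membrane, had a difference of -0.90 ± 0.15, and Gstk1, a glutathione transferase of mitochondria and peroxisomes, one of -1.07 ± 0.15. All 5 genes had both knockdown arrays below both control arrays, which adds little, since the values of 113 of the 114 called genes did not overlap.

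The list of brown fat thermogenic genes holds Ucp1 and Dio2 and was chosen with earlier results of these data known. For reference, 0.564% of all genes tested were called lower and 0.271% higher, at a median of -0.01. Of 24 brown fat thermogenic genes, 9 were called lower and 0 higher, at a median of -0.47. Beside Ucp1, Dio2, Mb and Cox7a1 these were Cidea, Sirt3, Slc36a2, Epsti1 and Letmd1. Slc36a2, an amino acid transporter of the brown adipocyte surface, stood at 3589 and 3964 against 1919 and 1786 (log2 change -1.01 ± 0.14 SE, adjusted p = 0.029 in limma). Sirt3, the main deacetylase of mitochondria, fell from 1109 and 1346 to 654 and 512 (log2 change -1.04 ± 0.17 SE, adjusted p = 0.0406 in limma). Letmd1, an inner membrane protein, stood at 955 and 1052 against 547 and 522 (log2 change -0.87 ± 0.14 SE, adjusted p = 0.0404 in limma). Its 3 other probe sets above the filter fell less, with differences of -0.49, -0.40 and -0.30 (limma adjusted p over probe sets 0.189, 0.346 and 0.423).

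The 15 other thermogenic genes tested were not called, and 6 of the 24 lay above 0. The overlapping groups included Elovl3, which lengthens very long fatty acid chains, at 1686 and 1903 against 2527 and 1612, and the lipid droplet protein gene Plin5, at 611 and 852 against 951 and 731. Cox8b, the complex IV isoform of brown fat and muscle, stood at 662 and 921 against 1440.1 and 887, so it did not follow Cox7a1. The nuclear receptor gene Ppara stood at 1461 and 1353 against 1373 and 1364 by its brightest probe set, and at -0.65 and -0.79 by 2 dimmer ones. The list's calls numbered 11 without knockdown array 1, 3 without either knockout-control array, 5 without either wild-type array and 7 without knockdown array 2. Its median was -0.65 without knockdown array 1 and -0.20 without knockdown array 2.

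The transcription regulators of brown fat and the genes of general fat cell differentiation gave no calls. At an unadjusted p under 0.05, 8.21% of all genes tested were lower and 5.93% higher. None of 16 brown fat regulators was called by limma (median -0.06, 2 lower and 1 higher at an unadjusted p under 0.05). Prdm16, which marks brown fat identity, stood at 249.6 and 252 against 199 and 171 (-0.39 ± 0.14, limma adjusted p = 0.272). Its 2 dimmer probe sets above the filter differed by -0.86 (165 and 215 against 104 and 76.1, limma adjusted p = 0.0785 over probe sets) and -0.49. Ebf2, another early factor, stood at 1349 and 1537 against 865 and 785 (-0.78 ± 0.15, limma adjusted p = 0.0565). None of 28 general adipocyte genes was called by limma (median -0.12, 4 lower and 1 higher at an unadjusted p under 0.05). Pparg, the master regulator of fat cells, stood at 5309.9 and 5263 against 4864 and 4239. Adipoq, which encodes adiponectin, stood at 10755 and 10015 against 9772 and 9523, and the lipase gene Lpl at 12567 and 11547 against 10943 and 11712. The groups separated for Pparg and Adipoq and overlapped for Lpl.

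Markers of other cells were measured as well. The summed intensity of 9 of 10 macrophage markers lay at 4304 and 3759 in knockout-control and at 3535 and 3961 in knockdown cells. That of 8 of 9 endothelial markers lay at 1115 and 1113 against 1041 and 1187, and that of all 10 smooth muscle and pericyte markers at 5904 and 5962 against 5635 and 5216. The largest member of the smooth muscle sum was Acta2, at 2067 and 2052 against 1762 and 1784. Within the same sum Tagln read 239 and 270 against 154 and 145, and Myl9 102 and 77 against 40 and 26. Of the 7 smooth muscle members tested, 6 lay below 0, 1 lay above 0 and 0 were called. The sum of 18 of 20 preadipocyte and fibroblast markers lay at 16725 and 18316 against 19273 and 18496, higher on both knockdown arrays. Within it, Vim read 9389 and 9359 against 10157 and 10454, and Dlk1 384 and 438 against 1609 and 1452. Of the 15 members of that list tested, 9 lay below 0, at a median of -0.16. Summed over 27 brown fat thermogenic genes, the arrays read 46709.9 and 49573 against 30326 and 24176. No marker was at 0 on any array, though only 2 of 9 endothelial markers and 6 of 10 macrophage markers lay above the filter, and 0 of each were called by limma, with 0 at an unadjusted p under 0.05. Below the filter and not tested were Cd68 (80 and 117 against 213 and 200) and Mrc1 (181 and 165 against 94 and 99). The largest member of the macrophage sum was Csf1r, at 2190 and 1859 against 1604 and 1964. Outside these lists, 3 genes known from endothelium or macrophages were called lower: Selp (2124 and 2270.3 against 1279 and 1093), Plvap (249.8 and 224 against 105 and 97.5) and C1qa (563 and 633 against 321 and 245). Their part in the other results was not tested.

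Among the factors that recruit PGC-1 coactivators, 1 was called. Esrra, the estrogen-related receptor alpha, which binds the promoters of many respiratory genes, stood at 1033 and 1226 in knockout-control and at 498 and 464 in knockdown cells (log2 change -1.17 ± 0.15 SE, adjusted p = 0.0202 in limma), against 949.9 and 926 in wild type. Esrrb was at -0.57 ± 0.15 (limma adjusted p = 0.125) and Esrrg at 0.03 ± 0.18. Of 15 nuclear receptor partners tested, Esrra was the only one called, and the list median was -0.04. None of 15 mitochondrial gene regulators was called by limma, at a median of -0.23, with 14 below 0. At an unadjusted p under 0.05, 5 of them were lower and 1 higher. Among all 13649 genes tested, 6968 lay below 0, and 8.21% were lower and 5.93% higher at that threshold. Tfam, which packages mitochondrial DNA, stood at 1535 and 1829 against 1195 and 1089 (-0.54 ± 0.15, limma adjusted p = 0.15), Gabpa at -0.57 ± 0.18 and Nrf1 at -0.13 ± 0.14.

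The proximal promoters of called genes that belong to these pathways are shown for the motifs of these factors, with matches in capitals. Each is the RefSeq window of build GRCm38.p6 from 250 bases before to 50 bases after an annotated transcript start, written in the direction of the gene. Ogdh lies at chr11:6291920-6292219 on the plus strand and holds an estrogen-related receptor half-site, AAGGTCA, in reverse, in 1 of its 6 windows. Sdhb lies at chr4:140961021-140961320 on the plus strand and holds the ETS core CCGGAAG, which GABPA binds. Uqcr11 lies at chr10:80406772-80407071 on the minus strand and holds the ETS core and the NRF1 core CGCATGCG. Dio2 lies at chr12:90738989-90739288 on the minus strand and holds the cAMP response element TGACGTCA, which begins 95 bases before the start.
Ogdh: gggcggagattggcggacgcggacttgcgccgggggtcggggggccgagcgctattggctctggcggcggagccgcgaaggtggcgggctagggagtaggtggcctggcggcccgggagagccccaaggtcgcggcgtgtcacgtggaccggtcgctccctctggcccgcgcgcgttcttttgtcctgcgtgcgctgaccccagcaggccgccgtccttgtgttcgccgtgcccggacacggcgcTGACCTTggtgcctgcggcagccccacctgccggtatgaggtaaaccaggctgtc
Sdhb: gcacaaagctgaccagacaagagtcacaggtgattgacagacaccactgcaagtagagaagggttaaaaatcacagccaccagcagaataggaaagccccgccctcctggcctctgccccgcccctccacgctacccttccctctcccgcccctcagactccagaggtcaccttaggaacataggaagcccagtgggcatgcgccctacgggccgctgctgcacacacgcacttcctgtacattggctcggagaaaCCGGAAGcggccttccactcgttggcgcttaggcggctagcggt
Uqcr11: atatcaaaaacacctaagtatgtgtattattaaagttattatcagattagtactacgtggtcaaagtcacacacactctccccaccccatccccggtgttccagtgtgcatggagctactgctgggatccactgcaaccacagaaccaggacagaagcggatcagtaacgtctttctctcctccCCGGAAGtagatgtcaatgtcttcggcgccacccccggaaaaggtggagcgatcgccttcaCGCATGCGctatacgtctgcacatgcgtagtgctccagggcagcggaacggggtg
Dio2: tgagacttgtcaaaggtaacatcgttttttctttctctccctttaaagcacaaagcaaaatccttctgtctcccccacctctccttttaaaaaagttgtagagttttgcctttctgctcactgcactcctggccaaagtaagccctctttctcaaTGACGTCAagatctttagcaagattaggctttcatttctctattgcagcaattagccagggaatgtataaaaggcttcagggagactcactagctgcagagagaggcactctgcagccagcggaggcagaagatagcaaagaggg

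The same motifs were counted on both strands in all windows, and none of the 5 contains another. They are 5 of 12 motifs searched, settled on after matches had been counted, and the 4 windows were picked because they hold a match. Windows were available for 56 of the 77 genes called lower, 25 of the 37 called higher, 64 of the 77 respiratory genes and 10963 of the 13649 genes tested. AAGGTCA was in a window of 8 of the 64 respiratory genes (12.5%), 5 of the 56 called lower (8.93%), 1 of the 25 called higher (4%) and 446 of the 10963 tested (4.07%). It was in 4.72% of all 32851 windows. CCGGAAG was in 16 of the 64 respiratory genes (25%), 7 of the 56 called lower (12.5%) and 17.5% of the genes tested, and in 8.86% of all windows. CGCATGCG was in 9 of the 64 (14.1%), 2 of the 56 (3.57%) and 3.77% of the genes tested, and in 1.87% of all windows. TGACGTCA was in 4 of the 64 (6.25%), 4 of the 56 (7.14%) and 3.25%, and in 1.79% of all windows. The YY1 motif AAGATGGC was in 9 of the 64 (14.1%), 0 of the 56 and 4.71%, and in 2.75% of all windows. The 7 motifs searched and not shown gave other shares. The full estrogen-related receptor site, TCAAGGTCA, which contains the half-site, was in 2 of the 64 respiratory genes (3.12%), 0 of the 56 called lower and 39 of the genes tested (0.356%). With its second base free (TNAAGGTCA) it was in 2 of the 64, 0 of the 56 and 109 of the genes tested (0.994%). The 10-letter NRF1 site, in which the core is extended by 1 base on either side, was in 4 of the 64 (6.25%), 0 of the 56 and 222 of the genes tested (2.02%), so its counts are lower than those of the shorter core. With 1 base free it was in 15 of the 64 (23.4%), 2 of the 56 and 10.1% of the genes tested. Both forms of the direct repeat that PPARs bind were in 0 of the 64 and 0 of the 56. They were in only 4 and 3 of the genes tested (0.0365% and 0.0274%), too few for these counts to set either group apart. The SP1 box GGGCGGG was in 22 of the 64 (34.4%), 25 of the 56 (44.6%) and 47.6% of the genes tested. A match in such a window is a string of letters and not a measured binding site.

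Within several enzyme families 1 isoform moved and another did not, although the difference between isoforms was not itself tested. Ldhb, the lactate dehydrogenase subunit of oxidative tissue, fell from 2783 and 2671 to 1042 and 1005 (log2 change -1.39 ± 0.14 SE, adjusted p = 0.00657 in limma), and its 3 other probe sets fell too, with log2 changes down to -2.27. Ldha, the glycolytic subunit, stood at 13017 and 12304 against 11742 and 12398 (-0.07 ± 0.14). Pdk4, a kinase that shuts off pyruvate dehydrogenase, rose from 1259 and 1661 to 3404 and 3277 (log2 change 1.19 ± 0.17 SE, adjusted p = 0.0279 in limma), while Pdk1, Pdk2 and Pdk3 had differences of -0.53 ± 0.25, -0.45 ± 0.15 and 0.17 ± 0.18 and were not called. Aldoc, an aldolase, rose from 271 and 417 to 925 and 803 (log2 change 1.28 ± 0.20 SE, adjusted p = 0.0375 in limma), with Aldoa at 0.03 ± 0.14. Of 19 genes of glycolysis and glucose uptake, Aldoc and Ldhb were the 2 called.

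In lipid metabolism, Acacb, the acetyl-CoA carboxylase of the mitochondrial surface whose product restrains fatty acid entry, fell from 2059.8 and 2067 to 1149.6 and 1044 (log2 change -0.89 ± 0.14 SE, adjusted p = 0.037 in limma). Acaca, the cytosolic form, was at -0.26 ± 0.15. Gpat3, which starts glycerolipid synthesis, fell from 1312 and 1050.3 to 549.8 and 329 (log2 change -1.40 ± 0.23 SE, adjusted p = 0.0412 in limma), with Gpam at -0.35 ± 0.14 and Gpat4 at -0.23 ± 0.16. These were the 2 calls among 23 genes of fatty acid and triglyceride synthesis (median -0.07). Phyh, which degrades phytanic acid in peroxisomes, fell from 2058 and 2485 to 867 and 643 (log2 change -1.56 ± 0.18 SE, adjusted p = 0.0131 in limma). It was the 1 call among 28 peroxisomal genes, whose median was 0.01. None of 19 cholesterol synthesis genes was called by limma (median 0.12, 1 lower and 3 higher at an unadjusted p under 0.05).

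**Figure D4:**
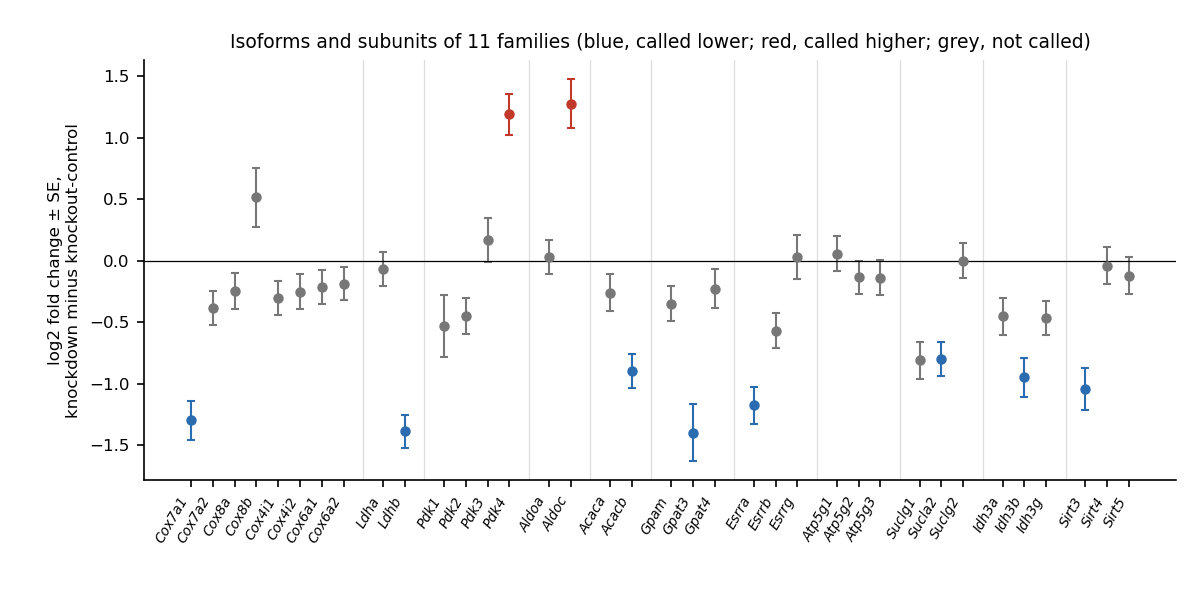
Log2 fold change ± SE (knockdown minus knockout-control) of isoforms or subunits in 11 enzyme or receptor families, with blue for called lower, red for called higher and grey for not called. Ldhb (-1.39) lies apart from Ldha (-0.07), Pdk4 (1.19) from Pdk1 to Pdk3, and Cox7a1 (-1.30) from Cox7a2 (-0.38).

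The genes that rose included secreted proteins, matrix genes and stress genes. Dlk1, which marks preadipocytes and restrains differentiation, stood at 384 and 438 in knockout-control and at 1609 and 1452 in knockdown cells (log2 change 1.82 ± 0.18 SE, adjusted p = 0.00696 in limma). It was the 1 call among 15 preadipocyte and fibroblast markers, whose median was -0.16. Among 27 chemokine and adipokine genes, Cxcl12, Gas6 and Lbp were called higher, against 0.271% of all genes tested. Another Cxcl12 probe set above the filter read 544 and 674 in knockout-control and 550 and 782 in knockdown cells. It differed by 0.11 with overlapping groups, against 1.84 for the brightest probe set. A dimmer Cxcl12 probe set, below the filter, differed by 1.14. Lbp, which binds bacterial lipopolysaccharide, rose from 293 and 360.3 to 997 and 910.4, but like Mb and Sucla2 it is 1 of 9 called genes with another probe set above the filter of opposite sign. Hsd11b1, which turns inactive into active glucocorticoid, rose from 1144 and 1393 to 3382 and 2532 (log2 change 1.19 ± 0.18 SE, adjusted p = 0.036 in limma). Per1, a clock gene, rose from 439 and 586 to 1169.8 and 1041 (log2 change 1.07 ± 0.17 SE, adjusted p = 0.0387 in limma) as the 1 call among 14 clock genes (median 0.05).

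Collagen genes had a median of 0.40 over 17 tested, with 1 called higher and 14 above 0. Among all 13649 genes tested, 0.271% were called higher, 6681 lay above 0, and the median was -0.01. Col6a2 rose from 1674 and 2086 to 3608 and 3409 (log2 change 0.90 ± 0.16 SE, adjusted p = 0.0468 in limma), and its partners Col6a1 and Col6a3 had differences of 0.44 ± 0.14 and 0.73 ± 0.14 and were not called. Col3a1 stood at 1285 and 1607 against 3374 and 2515 (limma adjusted p = 0.0575), and Col1a1 at 1417 and 1535 against 1615 and 1418, which overlapped. Among 30 other matrix genes, Mmp2, a gelatinase, rose from 323 and 308 to 728 and 759.9 (log2 change 1.16 ± 0.16 SE, adjusted p = 0.0259 in limma). Adamts1 fell from 956 and 1114 to 270.0 and 247 (log2 change -1.87 ± 0.15 SE, adjusted p = 0.00182 in limma), and Fbln5, an elastic fibre protein, from 702 and 789.9 to 359 and 337 (log2 change -1.03 ± 0.14 SE, adjusted p = 0.0272 in limma). Relative to knockout-control, the collagen list stood at 0.47 and 0.29 on the knockdown arrays and at 0.46 and 0.42 on the wild-type arrays.

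Of 22 stress genes, from the unfolded protein response and the integrated stress response, 2 were called higher and 0 lower, at a median of 0.09. At an unadjusted p under 0.05 there were 7 higher and 0 lower, and 17 lay above 0. Among all 13649 genes tested, 5.93% were higher and 8.21% lower at that threshold, 6681 lay above 0, and 0.271% were called higher. Chac1, which degrades glutathione, rose from 447 and 332 to 1245 and 967 (log2 change 1.44 ± 0.19 SE, adjusted p = 0.022 in limma), and Ddit4, an inhibitor of the growth kinase mTORC1, from 1763 and 1132 to 4231 and 3249 (log2 change 1.37 ± 0.23 SE, adjusted p = 0.0443 in limma). The transcription factor gene Atf4, which drives this response, stood at 3347 and 4377 against 4625 and 3204, and Trib3, a further target, at 3455 and 3820.3 against 3821 and 3944. Hspa5, the main chaperone of the endoplasmic reticulum, stood at 4719.6 and 5772 against 5928 and 4838. The groups overlapped for Atf4 and Hspa5.

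The interferon response was examined because siRNA is double-stranded RNA, which cells can sense, although both sides of the comparison express an siRNA. None of 24 genes tested was called by limma, but 19 lay above 0, 11 rose and 0 fell at an unadjusted p under 0.05, and the median was 0.35. Among all 13649 genes tested, 6681 lay above 0, 5.93% rose and 8.21% fell at that threshold, and the median was -0.01. Relative to the knockout-control mean, the list stood at 0.45 and 0.30 on the knockdown arrays and at 0.22 and 0.12 on the wild-type arrays. Ifit2 stood at 89.7 and 138 against 316 and 232 (1.08 ± 0.20, limma adjusted p = 0.0564), and Isg20 at 420.5 and 686 against 1391 and 1043 (limma adjusted p = 0.0827). Rsad2 and Oas1a, which respond to the same signal, stood at 390.3 and 368 against 374 and 397 and at 283 and 281 against 268 and 285. Outside the list, 3 called genes were chosen after their values were seen. H2-K1, a class I antigen-presenting gene, rose from 2818 and 2739 to 5239 and 5732 (log2 change 0.97 ± 0.14 SE, adjusted p = 0.0294 in limma), although its 4 probe sets differed between 0.13 and 1.22 and class I genes are close copies. Cd74 rose from 127 and 163 to 311 and 308, and the complement gene C1ra from 93 and 102 to 264 and 226, while the complement gene C1qa was called lower. In wild type, whose titles name no siRNA, H2-K1 read 8320 and 7863, Cd74 239 and 228, and C1ra 321 and 331.5. The source of these differences was not tested.

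Some of the genes that changed also differed between knockout-control and wild-type cells. That comparison shares the knockout-control arrays, and in it 348 of 13652 genes were called higher (2.55%) and 478 lower (3.5%). Of the 37 genes called higher after knockdown, 10 were called lower in knockout-control than in wild type, 1 higher and 26 neither. Serpinf1, which encodes a secreted serpin, read 2732 and 2798 in wild type, 947 and 1270.2 in knockout-control and 2632 and 2095 in knockdown cells. Cd9, a tetraspanin, read 738 and 735, then 162 and 208, then 602 and 410.2. Of the 77 called lower after knockdown, 6 were also called lower in knockout-control, 8 were called higher there and 63 neither. Ldhb was among the 6, at 4729 and 4579 in wild type, and Acacb among the 8, at 821 and 867. Ogdh, Ndufs1 and Sdhb were among the 63, with differences between knockout-control and wild type of -0.24, 0.04 and -0.09.

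**Figure D5:**
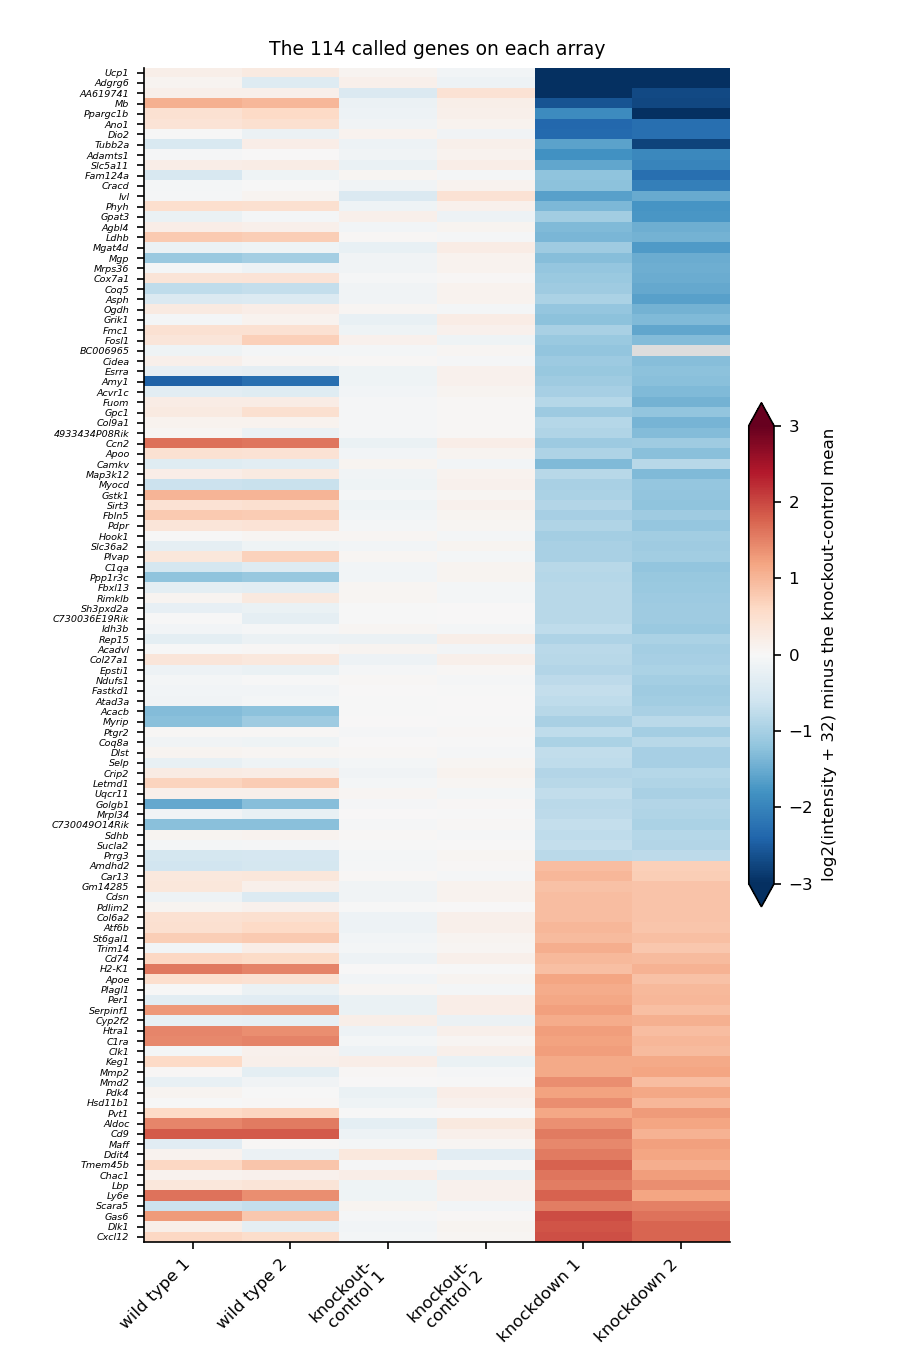
The 114 called genes as rows, ordered by log2 fold change, on the 6 arrays as columns; colour gives log2(intensity + 32) minus the knockout-control mean, from blue (lower) to red (higher), limited to 3 in either direction, and grey marks a missing cell. The 2 right columns are blue for the 77 genes called lower and red for the 37 called higher. Between knockout-control and wild type, 63 of the 77 and 26 of the 37 were not called by limma. The wild-type columns stand apart for genes such as Ccn2, Amy1, H2-K1, Cd9 and Aldoc.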

How the data were processed

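RNA of differentiated brown adipocytes was measured on 6 arrays of 45037 probe sets, with 2 arrays per group. The values deposited by the authors are linear intensities, 1 for each probe set on each array. How they were summarised, background-corrected and scaled is not given in the sources used here. Cells without a number were treated as missing. Names came from the 2016 platform annotation, with symbols brought up to date by Entrez identifier from RefSeq genes of GRCm38.p6 (34945 had 1 symbol, 932 several and 9160 none). Each gene was represented by its brightest probe set, and dim genes, with a mean below the 40th percentile over probe sets (intensity 163.6), were left out, which left 13658, of which 9 lacked a value for a group.

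limma 3.58.1 in R 4.3.3 (lmFit and eBayes) was fitted to log2(intensity + 32) on all 6 arrays with group means, and p-values were adjusted by Benjamini-Hochberg over all genes tested. Group names came from the sample titles. The number of arrays limits the precision: an exact permutation test of 2 against 2 cannot go below p = 0.333, so none was run. The procedure was tested on simulated data. The comparison, its genes and the 43 gene lists were chosen with earlier results of these data known. Lists are described by counts and medians, with no set test. Named genes were the 3 PGC-1 genes, Ucp1, Dio2, the most changed called genes, called list members, fixed examples and genes in no list. Members that were not called, enzyme families, promoter motifs, and the comparisons by brightness and by summed markers were chosen after values were seen. Alternatives covered the added value, the filter, the scaling, the probe set rule, the moderation, the arrays fitted, the replicate number as a block, missing cells, and each array left out. Promoter windows came from RefSeq and were searched with Python 3.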

Additional observations from a re-analysis of the deposited data

How the results depend on the processing

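The counts of calls moved with most settings, while the directions of Ppargc1b, Ucp1 and Dio2 held in every fit that tested them. With 8 added before log2 in place of 32, 44 genes were called lower, with 1 of the citric acid cycle and 1 of the respiratory chain. With 64 added there were 118 lower, with 8 of the cycle and 11 of the chain. With no filter on dim genes there were 2 higher and 7 lower calls, with 3 among thermogenic genes (list median -0.18) and 0 in the cycle and the chain, and Ppargc1b was not called (-2.47, limma adjusted p = 0.126). A filter at the 60th percentile gave 56 higher and 143 lower, with 10 in the cycle and 20 in the chain, and left Dio2 out. Equal array medians gave 80 higher calls. Quantile normalization gave 192 higher and 189 lower, with 9 in the cycle, 20 in the chain and a chain median of -0.49. Averaging all probe sets of each gene gave 1 higher and 12 lower, with 2 thermogenic, 1 in the cycle (median -0.52) and 0 in the chain. There Ppargc1b (-2.47, limma adjusted p = 0.0605) and Dio2 (-0.73, limma adjusted p = 0.16) were not called. Trend and robust settings gave 85 higher and 240 lower, with 14 in the cycle and 59 in the chain. The 4 knockout arrays alone gave 17 higher and 30 lower, with 5 thermogenic, 1 in the cycle and 1 in the chain. Only genes with a value on every array gave 37 higher and 76 lower.

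With the replicate number as a block there were 8 higher and 14 lower calls, with 3 thermogenic, 1 in the cycle and 0 in the chain. Deviations of same-numbered arrays from their group means correlated at -0.50 between knockout-control and knockdown. The values were 0.20 between wild type and knockout-control and -0.15 between wild type and knockdown. Knockout-control array 1 thus deviated with knockdown array 2 (r = 0.955), and knockout-control array 2 with knockdown array 1 (r = 0.967). Same-numbered arrays of these groups correlated at 0.947. Empty cells numbered 334 and 360 in the first of these crossed pairs and 106 and 27 in the second. Mean intensities were 578 and 522 against 612 and 614. The source of this structure was not tested. A block with crossed numbers, added after the data were seen, gave 301 higher and 463 lower calls.

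With each array left out in turn, the lower calls ranged from 7 to 463 and the higher from 1 to 79. Calls ranged from 3 to 11 among thermogenic genes (median -0.65 to -0.20), 0 to 11 in the cycle (median -0.86 to -0.62) and 0 to 38 in the chain, and Ppargc1b from -3.04 to -1.89. Of the 114 calls, 3 held under all 17 alternatives other than the crossed block (Ucp1, Ano1 and Adamts1). Genes near 0 changed sign: Ppara stood at 0.0352 with equal medians and 0.00922 after quantile normalization, Fabp4 at 0.0126 with averaged probe sets. With each array left out, Ppara ranged from -0.092 to 0.0156, Pprc1 from -0.0243 to 0.25, Elovl3 from -0.15 to 0.49 and Ppargc1a from -0.29 to 0.50. The cause of these changes was not tested. Having 2 arrays a group, and probe sets near background for dim genes, limits what can be seen.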

Other observations

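Several called genes that belong to none of the lists encode signalling and matrix proteins, and they were chosen after their values were seen. Slc5a11, an inositol transporter, fell from 761 and 1030.0 in knockout-control to 279.9 and 202 in knockdown cells (log2 change -1.76 ± 0.20 SE, adjusted p = 0.0112 in limma). Acvr1c, an activin receptor of adipocytes that restrains lipolysis, fell from 1613 and 1790.2 to 839 and 659.7 (log2 change -1.16 ± 0.16 SE, adjusted p = 0.0279 in limma). Mgp, an inhibitor of calcification, fell from 2123 and 2469 to 924 and 801 (log2 change -1.38 ± 0.15 SE, adjusted p = 0.0112 in limma), the heparan sulfate proteoglycan gene Gpc1 from 330.2 and 354 to 145 and 134, and Ccn2, a matrix-associated growth factor, from 366 and 495 to 183 and 185. Myocd, a coactivator of smooth muscle genes, fell from 970.2 and 1156 to 521 and 455 (log2 change -1.07 ± 0.15 SE, adjusted p = 0.0294 in limma). In each of these 6 genes both knockdown arrays lay below both knockout-control arrays. The same absence of overlap held for 113 of the 114 called genes.

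Among called genes that rose outside the lists, Apoe, which carries lipid, went from 1048 and 1177 to 2553 and 2055 (log2 change 1.02 ± 0.16 SE, adjusted p = 0.037 in limma) and Plagl1, an imprinted zinc finger gene, from 478 and 439 to 1026 and 935 (log2 change 1.05 ± 0.15 SE, adjusted p = 0.0279 in limma). Pvt1, a long noncoding RNA gene next to Myc, went from 158 and 164 to 399 and 434 (log2 change 1.22 ± 0.14 SE, adjusted p = 0.0121 in limma), and the small Maf factor gene Maff from 295 and 324 to 890.5 and 770.3 (log2 change 1.33 ± 0.17 SE, adjusted p = 0.022 in limma). Clk1, a kinase of splicing factors, went from 303 and 382 to 859.7 and 685. All 5 had both knockdown arrays above both knockout-control arrays, where 113 of the 114 called genes had no overlap.

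Several further lists had no call by limma, against a median of -0.01 over all genes. Of all genes tested, 8.21% were lower and 5.93% higher at an unadjusted p under 0.05. The medians were 0.01 for 35 cell cycle genes (1 lower and 6 higher at an unadjusted p under 0.05), 0.03 for 35 genes of Wnt, BMP and TGF-beta signalling (0 and 3), -0.05 for 14 of adrenergic and cAMP signalling (0 and 1), and -0.08 for 21 antioxidant genes (5 and 3). They were -0.01 for 7 genes of creatine and calcium cycling (1 and 2), -0.02 for 9 white and beige fat markers (1 and 1) and 0.13 for 5 skeletal muscle markers (0 and 0). Among 7 smooth muscle and pericyte markers the median was -0.21 (1 and 0), and 2 sex-linked genes stood at a median of -0.39 (1 and 0). Of 12 genes of pyruvate dehydrogenase and ketone use, only Pdk4 was called, at a median of -0.29, and of 15 genes of heme, iron and myoglobin only Mb, at -0.14.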
